A study of Mus musculus with 12 samples.

Results

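The antioxidant peroxidases and dismutases are followed here as 10 genes: Gpx1, Gpx3, Gpx4, Prdx1, Prdx2, Prdx6, Cat, Sod1, Sod2 and Sod3. They were chosen by name for the enzymes they encode, with earlier results of these data known. They are 10 of the 55291 gene symbols counted in every library. All 10 had enough counts to be tested, among 18147 genes that did. RNA was sequenced from 12 low-input libraries, 3 in each of 4 groups, of cells that the labels call VE-cadherin-positive and endothelial. Marrow AML and lung AML libraries came from the bone marrow and lung of VECadCre-tdTomato mice that had received acute myeloid leukaemia (AML) cells labelled Trp53(R172H/delta), that is, with a missense change and a deletion in the gene of the tumour suppressor p53. Marrow control and lung control libraries came from mice of the same line labelled as normal controls. In that line, shared by all 4 groups, Cre recombinase is made under VE-cadherin control and switches on a red fluorescent protein, and the label is kept in the progeny of a labelled cell. The labels give neither age nor time after transplant, nor whether cells were collected by antibody or by fluorescence. Control mice are described as normal and not as having received cells, so leukaemia and the transfer of cells cannot be told apart. Effects of leukaemia named below are differences between AML and control libraries. The labels do not say that libraries of a group came from separate mice, so a p-value here reflects only how far these libraries scatter, which may be technical.

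Superoxide is turned into hydrogen peroxide by the superoxide dismutases, of which Sod1 is cytosolic and uses copper and zinc, Sod2 is mitochondrial and uses manganese, and Sod3 is secreted and binds the extracellular matrix. Hydrogen peroxide is then removed by catalase, the product of Cat, by glutathione peroxidases, which spend glutathione, and by peroxiredoxins, most of which are recharged by thioredoxin. Gpx1 is cytosolic, Gpx3 is secreted into plasma, and Gpx4 reduces lipid hydroperoxides in membranes. Red cell precursors make much Gpx1 and Prdx2, which protect haemoglobin, and in the lung Prdx6 also takes part in surfactant lipid turnover.

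Gpx1, Gpx3 and Gpx4 are selenoproteins, in which a TGA codon inside the coding sequence is read as selenocysteine in place of a stop. The 3 sites are shown because this residue carries out the reaction and because the selenium genes described further on serve it. In each line 15 coding bases stand on either side of the codon, which is in capitals. The sequences come from GENCODE M21 transcripts, and the coordinates are those of the codon on GRCm38, plus strand.
Gpx1, codon 47 of 201, chr9:108339451-108339453: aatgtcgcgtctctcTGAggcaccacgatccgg
Gpx3, codon 73 of 226, chr11:54907256-54907258: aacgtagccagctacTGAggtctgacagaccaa
Gpx4, codon 73 of 197, chr10:80054737-80054739: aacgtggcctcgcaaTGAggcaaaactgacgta
Of the 33 bases, 14 were the same in all 3 genes. This count and the next ones include the TGA codon itself, on which the windows were centred. Gpx3 and Gpx4 shared 20, Gpx1 and Gpx4 shared 19, and Gpx1 and Gpx3 shared 16. The annotation marks no selenocysteine codon in the principal transcripts of the other 7 genes.

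Total counts per library lay between 12787550 and 39163571. Levels are given as CPM, the usual library-size scale for counts, with library sizes adjusted by trimmed mean of M values (TMM) factors. Markers of endothelial cells, 10 genes with VE-cadherin (Cdh5) among them, took 0.0172 to 0.0228% of the counts in marrow AML, 0.00967 to 0.0163% in marrow control, 0.0225 to 0.0723% in lung AML and 0.176 to 0.563% in lung control. Lung epithelium markers, 10 genes with surfactant protein C (Sftpc) among them, took 21.6 to 23.6% in lung AML and 16.0 to 19.8% in lung control. Markers of the labelled cell type were thus a small share of the RNA in all 12 libraries, below those of lung epithelium in both lung groups, and the 10 genes are described as levels in these libraries. Lung control library 2 stood apart, with 0.563% endothelial markers against 0.176 and 0.249% in the other two, and results it decides are given with and without it. In such bulk libraries, fewer cells of a type and less RNA per cell cannot be told apart.

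Together the 10 genes took 1.47% ± 0.208 of the counts in marrow AML, against 1.41% ± 0.289 in marrow control, and 0.831% ± 0.122 in lung AML, against 0.396% ± 0.0575 in lung control (mean ± SD, n = 3 each, as are the group values below). The sum in marrow was similar with and without leukaemia while the genes that made it up were not. To compare genes with each other, levels were divided by the summed length of each gene's exons, as CPM per kb. Gpx3 led in marrow AML, at 4024 ± 1241 CPM per kb or 62.5% of the summed level, followed by Gpx1 at 1368 ± 584 CPM per kb. In marrow control Gpx1 led, at 5299 ± 1085 CPM per kb or 67.5% of the sum, and Prdx2 was next at 1308 ± 271 CPM per kb. The ranges of these leading pairs did not overlap in either group.

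In lung AML Gpx3 again led, at 2428 ± 833 CPM per kb or 57.6% of the sum, with Gpx1 at 496 ± 45.9 and Cat at 357 ± 19.7 CPM per kb after it. Lung control had no leader beyond the spread between libraries. There Gpx1 at 390 ± 64.9, Gpx3 at 350.5 ± 196 and Cat at 308 ± 44.5 CPM per kb had overlapping ranges, with 23.2, 19.8 and 18.4% of the sum. Sod1 and Sod2 were lowest or nearly so per kb in all 4 groups, with means between 8.99 and 20.7 CPM per kb. These low ranks depend on the length used. Divided by the principal transcript, a choice made after seeing the data, Sod1 reached 67.2 to 128 CPM per kb as group means, and Prdx6 passed Gpx1 to second place in lung AML (705 against 667 CPM per kb). The gene with the highest mean in each group was the same with both lengths. In lung control the order of Gpx1 and Gpx3 by exon length rested on library 2. There Gpx3 was at 129 CPM per kb, against 499 CPM per kb in library 3. Without library 2, Gpx3 had the higher mean by exon length.

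**Figure D1:**
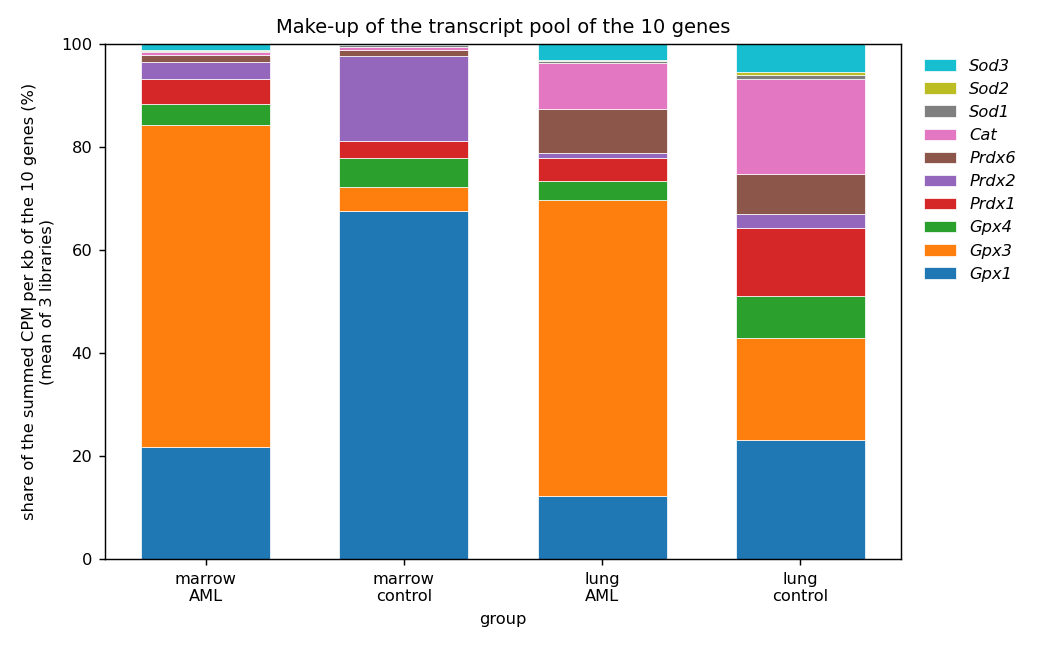
Stacked bars give, for each group, the share (%) of each of the 10 genes in their summed CPM per kb, as the mean of 3 libraries. Gpx3 fills 62.5% of the bar of marrow AML and 57.6% of that of lung AML. Gpx1 fills 67.5% in marrow control, and in lung control Gpx1, Gpx3 and Cat fill 23.2, 19.8 and 18.4%.

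The first comparison asks how these genes differed in marrow between AML and control libraries. Gpx3 and Sod3, both secreted, rose, and Gpx1, Prdx2, Gpx4 and Sod1 fell. By edgeR's quasi-likelihood test with Benjamini-Hochberg adjustment over all genes, 6 of the 10 passed an adjusted p of 0.05, where 43.8% of all tested genes did. The 2 that rose stand against 20.4% of all genes called higher, and the 4 that fell against 23.5% called lower. Marrow AML and marrow control libraries did not overlap for 8 of the 10 genes, as was the case for 47.8% of all genes. Whether these shares exceed the background was not tested. The median log2 fold change was -0.20 over the 10 genes and -0.11 over all tested genes. The balance over all genes moved with the scaling, from 3694 higher and 4263 lower with TMM to 4651 higher and 2943 lower with library totals alone, where the median of all genes was 0.16.

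**Figure D2:**
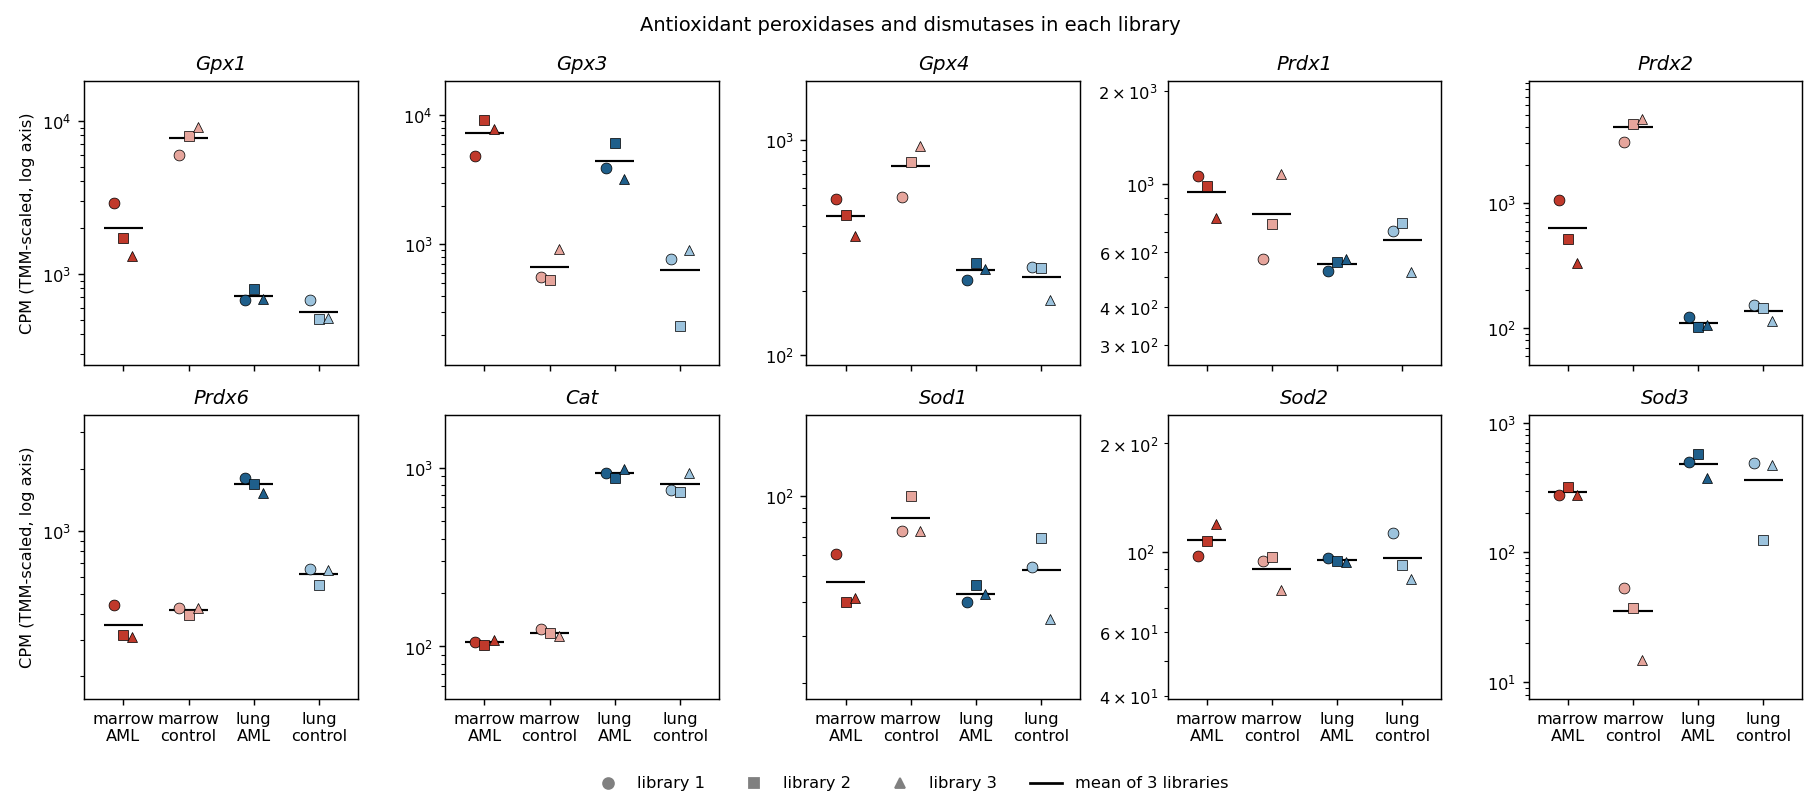
Each panel shows 1 gene in CPM on a log axis, with a symbol for each of the 12 libraries and a line at the mean of 3. Gpx3 and Sod3 sit higher in all marrow AML libraries than in any marrow control library, Gpx1 and Prdx2 sit lower, and Prdx6 and Gpx3 sit higher in lung AML than in lung control.

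Among the glutathione peroxidases, Gpx3 (GRCm38, chromosome 11, 54902453 to 54910377, plus strand) stood at 4812, 9202 and 7870 CPM in marrow AML libraries 1, 2 and 3, against 557, 534 and 926 CPM in marrow control libraries 1, 2 and 3. The lowest AML library was well above the highest control. As a share of all counts, without TMM factors, Gpx3 took 0.879% in marrow AML and 0.0652% in marrow control. On the TMM scale of the test it was 10.8-fold higher (log2 fold change 3.44 ± 0.51 SE, adjusted p = 0.000361).

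Gpx1 (chromosome 9, 108338903 to 108340343, plus strand) went the other way. It stood at 2914, 1699 and 1299 CPM in marrow AML libraries 1, 2 and 3, against 5962, 7883 and 9061 CPM in the marrow controls. The groups did not overlap, and the AML libraries differed among themselves by 2.24 times between highest and lowest. Gpx1 was 3.87-fold lower with leukaemia (log2 fold change -1.95 ± 0.30, adjusted p = 0.000423). Gpx4 (chromosome 10, 80047166 to 80056439, plus strand) averaged 446 ± 86.2 CPM in marrow AML and 758 ± 201 CPM in marrow control, groups that came close without overlap. It fell by 0.77 ± 0.23 on the log2 scale (adjusted p = 0.0197), and the call was lost with library totals (adjusted p = 0.151), with only the 6 marrow libraries in the fit (0.103), with limma-voom (0.108), with a stricter filter (0.0792) and without marrow AML library 3, marrow control library 2 or marrow control library 3 (0.0530 to 0.0751). Gpx4-ps2, a processed copy of Gpx4, held 3.07 to 3.31% as many counts as Gpx4 in each group, so reads may be split between them.

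Of the peroxiredoxins, Prdx2 (chromosome 8, 84969587 to 84974834, plus strand) had the deepest fall of the 10 genes. It was at 1052, 511 and 333 CPM in marrow AML libraries 1, 2 and 3, against 3067, 4227 and 4671 CPM in the marrow controls. Every AML library was below every control, and library 1 was highest among the AML libraries for Prdx2 as for Gpx1. Prdx2 was 6.31-fold lower (log2 fold change -2.66 ± 0.37, adjusted p = 0.000267). Counting ignored the strand, and Prdx2 shares 177 exonic bases with Rnaseh2a and 173 with Junb on the opposite strand, where reads cannot be told apart. Rnaseh2a was at 76.7 to 88.6 CPM in marrow AML and 181 to 202 CPM in marrow control, and Junb at 2583 to 3545 and 567 to 884 CPM.

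Prdx1 (chromosome 4, 116685544 to 116700822, plus strand), the abundant cytosolic peroxiredoxin, did not pass, with 773 to 1058 CPM in marrow AML and 572 to 1075 CPM in marrow control (log2 fold change 0.24, 95% interval -0.28 to 0.76, adjusted p = 0.438). Prdx6 (chromosome 1, 161240112 to 161251219, minus strand), which uses glutathione rather than thioredoxin, averaged 355 ± 73.8 and 416 ± 18.4 CPM (log2 fold change -0.23, interval -0.61 to 0.15, adjusted p = 0.302, with the sign reversed under library totals at 0.09). Catalase did not pass either. Cat (chromosome 2, 103453849 to 103485160, minus strand) had 107, 102 and 109 CPM in marrow AML and 125, 118 and 114 CPM in marrow control. These groups did not overlap, yet the gap was small (log2 fold change -0.17, interval -0.48 to 0.14, adjusted p = 0.356) and its sign reversed under library totals, at 0.14.

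The dismutases differed from each other. Sod3 (chromosome 5, 52363791 to 52371418, plus strand) was at 278, 317 and 276 CPM in marrow AML libraries 1, 2 and 3, against 53.3, 37.5 and 14.8 CPM in the marrow controls. The AML libraries lay close together, and even the highest control was far below them. Sod3 rose 8.24-fold (log2 fold change 3.04 ± 0.53, adjusted p = 0.000953). Sod1 (chromosome 16, 90220754 to 90226329, plus strand) fell by 0.80 ± 0.26 on the log2 scale (adjusted p = 0.0271), with 40.2 to 60.7 CPM in marrow AML and 73.5 to 99.9 CPM in marrow control. That call was lost with library totals (adjusted p = 0.156), with only the marrow libraries in the fit (0.0604), with limma-voom (0.0735), with a stricter filter (0.0772) and without marrow AML library 2 or 3 or marrow control library 2 (0.0724 to 0.105). Sod2 (chromosome 17, 13006846 to 13040063, plus strand) was at 97.8 to 120 CPM in marrow AML and 78.5 to 96.9 CPM in marrow control (log2 fold change 0.27, interval -0.07 to 0.60, adjusted p = 0.176). It passed with library totals (adjusted p = 0.00876), with TMM factors made without marker genes of some other cells (0.0458) and with a stricter filter (0.0119). Those factors left out markers of red cell precursors, leukocytes, neutrophils, monocytes and macrophages, and lung epithelium. Markers of endothelial, pericyte and stromal cells were kept. The same setting is meant below by TMM without marker genes.

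Markers of other marrow cells differed between the same libraries. Of the 10 endothelial markers 4 fell and 1 rose in marrow, although their summed share was higher in marrow AML, and Cdh5 was at 0.634 ± 0.291 CPM in marrow AML and 4.91 ± 1.51 CPM in marrow control (adjusted p = 0.0141). Of 11 red cell precursor markers, with the transcription factor gene Klf1 among them, 11 fell, and together they took 0.291, 0.0775 and 0.0346% of the counts in marrow AML libraries 1, 2 and 3, against 1.46 to 1.62% in marrow control. Within marrow AML library 1 was highest and library 3 lowest for these markers, for Gpx1, Prdx2 and Gpx4, and also for Prdx1 and Prdx6, which were not called. Of 9 pericyte and smooth muscle markers, with Rgs5 among them, 8 rose, and their share was 0.317 to 1.08% in marrow AML and 0.0190 to 0.0665% in marrow control. Marrow stromal and bone lineage markers took 0.952% ± 0.274 in marrow AML and 1.78% ± 0.339 in marrow control, with 3 of 9 called higher and 3 lower. None of these markers was at 0 in a group. Their part in the changes of the antioxidant genes was not tested.

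**Figure D3:**
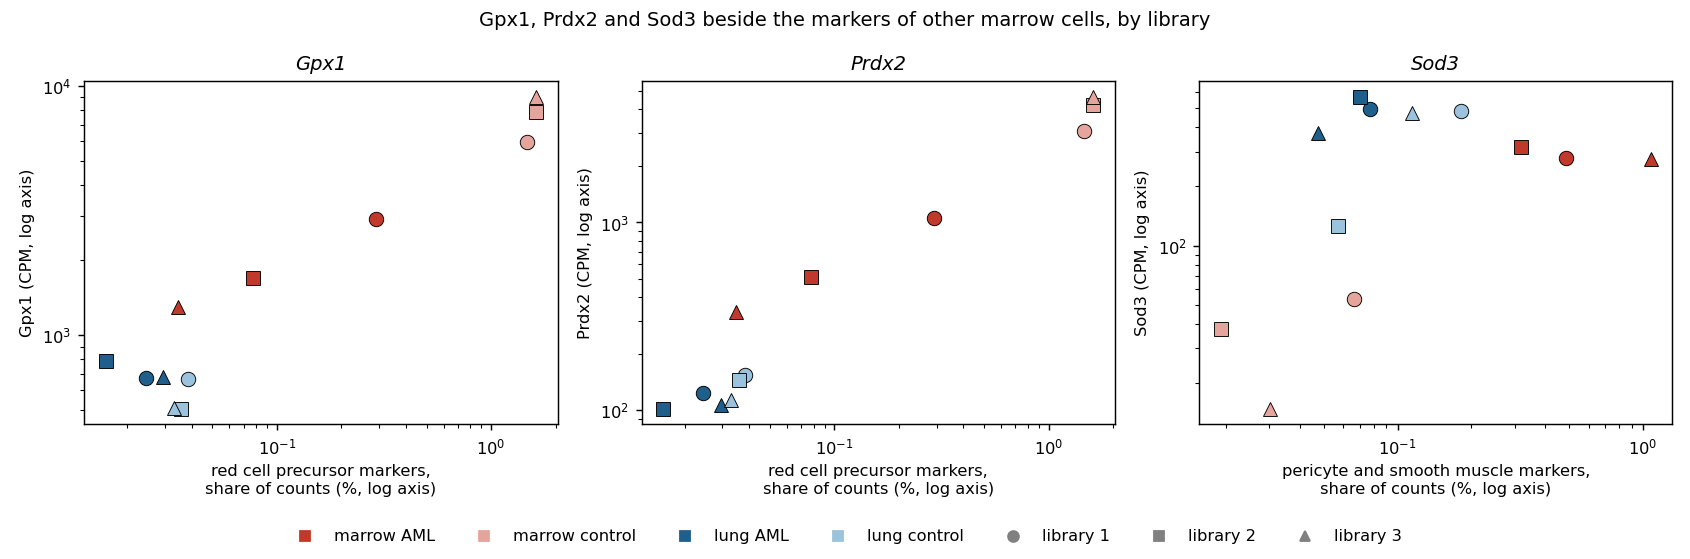
Each of the 12 libraries is placed by the share of its counts (%, log axis) taken by red cell precursor markers, for Gpx1 and Prdx2, or by pericyte and smooth muscle markers, for Sod3, and by the level of the gene (CPM, log axis). Marrow controls stand at the upper right for Gpx1 and Prdx2 with marker shares of 1.46 to 1.62%, and for Sod3 5 of the 6 lung libraries lie above the marrow AML libraries at pericyte shares of at most 0.181%.

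In lung the comparison with leukaemia called fewer genes. Gpx3 and Prdx6 rose and the other 8 genes did not pass. The 2 calls of 10 stand against 2.33% of all tested genes called, 1.17% called higher and 1.16% called lower. No gene of the 10 passed lower by edgeR, DESeq2 or limma-voom, nor at an unadjusted p of 0.05 by edgeR. Lung AML and lung control did not overlap for 3 of the 10 genes, and for 35% of all genes. The median log2 fold change was 0.16 over the 10 genes and 0.00 over all, and with library totals 182 genes were higher and 273 lower, against 212 and 211 with TMM.

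Gpx3 was at 3911, 6097 and 3197 CPM in lung AML libraries 1, 2 and 3, against 769, 233 and 904 CPM in lung control libraries 1, 2 and 3. The groups were far apart, and lung control library 2 was the lowest of all 12. Gpx3 was 6.93-fold higher (log2 fold change 2.79 ± 0.49, adjusted p = 0.0177). The adjusted p rose to 0.0629 without lung AML library 1 and to 0.0582 without lung control library 1, with log2 fold changes of 2.87 and 2.91. Without lung control library 2 the log2 fold change was 2.39 (adjusted p = 0.0321).

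Prdx6 had the smallest p of the 10 genes in this comparison. It stood at 1816, 1698 and 1535 CPM in lung AML libraries 1, 2 and 3, against 658, 552 and 651 CPM in the lung controls. Replicates agreed closely and the groups were clearly apart, with a 2.71-fold rise (log2 fold change 1.44 ± 0.17, adjusted p = 0.00314), and the call was kept in all 6 fits that left out a lung library. Prdx6b, a retrocopy, held at most 0.0126% as many counts as Prdx6 in any group.

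Gpx1 averaged 715 ± 66.1 CPM in lung AML and 562 ± 93.6 CPM in lung control, with the lowest AML library just above the highest control (log2 fold change 0.35, interval -0.28 to 0.98, adjusted p = 0.662). Cat was high in both groups, at 938, 878 and 981 CPM in lung AML and 748, 727 and 938 CPM in lung control (log2 fold change 0.21, interval -0.10 to 0.52, adjusted p = 0.545). Sod3 was at 494, 571 and 375 CPM in lung AML and 485, 126 and 474 CPM in lung control, where library 2 stood apart from the other two. Its log2 fold change was 0.41 (interval -0.67 to 1.49, adjusted p = 0.804) and was -0.00052 without that library (adjusted p = 1). The other 5 genes had no call. Prdx1 was at 523, 559 and 572 CPM in lung AML and 702, 747 and 518 CPM in lung control, where library 3 alone was below the AML libraries (log2 fold change -0.25, adjusted p = 0.722). Prdx2, low in this tissue, was at 102 to 124 CPM in lung AML and 113 to 154 CPM in lung control. Its interval, -1.08 to 0.46, excludes a fall of the size seen in marrow. Gpx4 averaged 248 ± 23.1 and 231 ± 43.8 CPM, Sod1 43.1 ± 3.18 and 52.9 ± 17.5 CPM, and Sod2 95.1 ± 1.03 and 96.5 ± 14.7 CPM in lung AML and lung control. Their log2 fold changes were 0.10, -0.29 and -0.02 (adjusted p = 0.927, 0.687 and 0.980), and those of Gpx4 and Sod2 changed sign in some settings.

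Lung epithelium markers had the shares given above, 21.6 to 23.6% in lung AML and 16.0 to 19.8% in lung control. These shares did not overlap, and the median log2 fold change of the 10 markers was 0.47, though 0 were called by edgeR. Endothelial markers were lower in lung AML, 5 of 10 called, and lung control library 2, lowest of the lung libraries in Gpx3 and Sod3, had the highest endothelial share at 0.563% and the lowest epithelial share at 16.0%. Pericyte markers took 0.0472 to 0.0769% in lung AML and 0.0574 to 0.181% in lung control, none at 0, and 0 of 9 were called by edgeR. Marrow stromal and bone lineage markers took 0.0349 to 0.0529% in lung AML and 0.0680 to 0.142% in lung control, groups that did not overlap, and 2 of 9 were called lower. Lung control library 2 was the lowest lung control in pericyte markers, at 0.0574%, and in these stromal markers, at 0.0680%. Red cell precursor markers took 0.0159 to 0.0294% in lung AML and 0.0330 to 0.0383% in lung control, yet 2 of 11 were called higher, and Klf1 was at 10.9 ± 6.18 CPM in lung AML and 0.738 ± 0.0456 CPM in lung control (adjusted p = 0.00239). Neutrophil markers took 0.0107 to 0.0408% in lung AML and 0.00584 to 0.0143% in lung control, with Elane at 0 in lung control. Of these 8 markers 0 were called by edgeR and 6 were higher at an unadjusted p of 0.05. Monocyte and macrophage markers took 2.56 to 3.12% in lung AML and 2.62 to 3.10% in lung control, with 0 of 8 called. Their part in the results for Gpx3, Prdx6 and Sod3 was not tested.

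**Figure D4:**
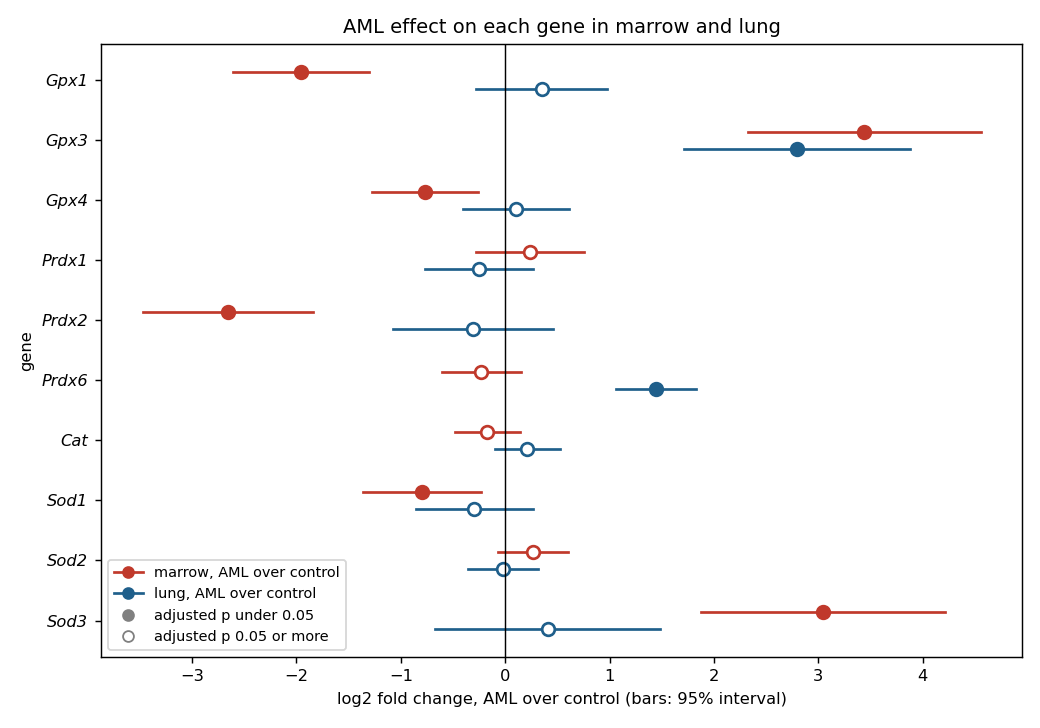
Points give the log2 fold change of each gene, AML over control, in marrow (red) and in lung (blue), with bars for the 95% interval and filled points for an adjusted p under 0.05. Gpx3 is to the right in both tissues, at 3.44 and 2.79, while Gpx1 and Prdx2 are to the left in marrow and Prdx6 is to the right in lung.

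Whether leukaemia acted unequally in the 2 tissues was tested as an interaction, the log2 effect in marrow minus that in lung. It was called for 4 of the 10 genes, Gpx1, Prdx2, Prdx6 and Sod3, and for 30.7% of all tested genes. The difference was higher for 1 (14.6% of all genes) and lower for 3 (16.1%). For Gpx1 it was -2.30 ± 0.41 (adjusted p = 0.00203), with a fall in marrow and a log2 fold change of 0.35 in lung that did not pass. For Prdx2 it was -2.35 ± 0.50 (adjusted p = 0.00510). Prdx6 differed by -1.67 ± 0.24 (adjusted p = 0.000680), with its rise in lung, and Sod3 by 2.63 ± 0.71 (adjusted p = 0.0159), with its rise in marrow. Without lung control library 2 the Sod3 value was 3.05 (adjusted p = 0.00325).

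For Gpx3 the difference was 0.65 ± 0.65 (interval -0.79 to 2.08, adjusted p = 0.493), so effects of equal size and effects that differ by up to 2.08 on the log2 scale both lie inside the interval. Without lung control library 2 it was 1.05 (adjusted p = 0.141). Gpx4 was just outside the threshold (-0.87 ± 0.33, adjusted p = 0.0650). The remaining 4, Prdx1, Cat, Sod1 and Sod2, had differences between -0.50 and 0.49 and adjusted p from 0.176 to 0.342. Over all genes 2642 differences were higher and 2925 lower, and with library totals 3494 and 1756, with a median of 0.30 against -0.09 with TMM. Under library totals the sign of Cat reversed, at 0.0096, and Sod2 passed (0.69, adjusted p = 0.0303).

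The last comparison sets marrow control against lung control, which are the controls of the comparisons above, so its values are given side by side with those and not as separate evidence. Gpx1, Prdx2, Gpx4 and Sod1 were higher in marrow, and Cat, Sod3 and Prdx6 were lower. These 7 calls of 10 stand against 64.2% of all genes called, the 4 higher against 29.4% and the 3 lower against 34.7%. Libraries of the 2 tissues did not overlap for 7 of 10 genes, and for 74.8% of all genes, shares close to those of the whole table. The median log2 fold change was 0.18 over the 10 and -0.20 over all genes, the second of which was -0.30 with DESeq2 size factors and -0.38 with TMM factors made without marker genes.

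Prdx2 averaged 3988 ± 828 CPM in marrow control and 137 ± 21.3 CPM in lung control, 29.1-fold higher in marrow (log2 fold change 4.86 ± 0.41, adjusted p = 2.69e-06). Gpx1 averaged 7635 ± 1564 and 562 ± 93.6 CPM, 13.6-fold higher (log2 fold change 3.77 ± 0.32, adjusted p = 2.79e-06). In marrow AML, at 632 ± 374 CPM for Prdx2 and 1971 ± 841 CPM for Gpx1, every library was still above every lung library. Gpx4 was 3.28-fold higher in marrow (758 ± 201 against 231 ± 43.8 CPM, adjusted p = 8.37e-05). Sod1 was higher by 0.64 ± 0.26 on the log2 scale (adjusted p = 0.0466), a call lost in 10 of the alternative fits.

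Cat averaged 119 ± 5.64 CPM in marrow control and 804 ± 116 CPM in lung control, 6.75-fold lower in marrow (log2 fold change -2.76 ± 0.15, adjusted p = 2.51e-07), the smallest p of the 10 genes. Sod3 was 10.3-fold lower in marrow, with 35.2 ± 19.3 and 362 ± 204 CPM (log2 fold change -3.36 ± 0.54, adjusted p = 0.000243, and -3.79 without lung control library 2). Prdx6 was lower by a log2 fold change of -0.58 ± 0.17 (adjusted p = 0.0120). Gpx3 had 672 ± 220.0 and 635 ± 355 CPM, and its log2 fold change of 0.08 (interval -0.93 to 1.09, adjusted p = 0.887) took the other sign with 2 of the scalings, with no filter, with DESeq2's test and without marrow control library 3 or lung control library 2. Prdx1 and Sod2 had values of 0.28 and -0.10 (adjusted p = 0.320 and 0.575). Red cell precursor markers took 1.46 to 1.62% in marrow control and at most 0.0383% in lung control, and lung epithelium markers at most 0.251% in marrow control. Their part was not tested.

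Other genes of the antioxidant system were followed as 6 lists, whose counts in marrow are to be read beside the 20.4% of all tested genes called higher and the 23.5% called lower. Whether a list exceeds these shares was not tested. In marrow the glutathione list had 8 tested genes, of which 2 rose and 4 fell (median log2 fold change -0.38). Gclc and Gclm, the catalytic and modifier subunits of the enzyme that makes the first step of glutathione synthesis, fell by 2.52 ± 0.21 and 1.67 ± 0.26 on the log2 scale (adjusted p = 1.88e-05 and 0.000513). Gclc averaged 70.8 ± 13.2 CPM in marrow AML and 406 ± 53.9 CPM in marrow control. Gss, glutathione synthetase, fell by 1.03 ± 0.18 (adjusted p = 0.000788).

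The thioredoxin list had 3 of 7 genes higher and 2 lower (median -0.34), a total of 5 that was 3 with limma-voom. The mitochondrial pair Txnrd2, a thioredoxin reductase, and Txn2, a thioredoxin, fell by 2.57 ± 0.21 and 0.84 ± 0.16 (adjusted p = 1.90e-05 and 0.00174), and Txnip, an inhibitor of thioredoxin, rose (1.51 ± 0.38, adjusted p = 0.00773). Txnrd2 averaged 35.1 ± 10.7 CPM in marrow AML and 208 ± 14.2 CPM in marrow control. Of 6 other peroxidases tested, 2 rose and 1 fell (median 0.34), and leaving out 1 library gave 1 or 2 calls in place of 3. Prdx3, the mitochondrial peroxiredoxin, fell to 332 ± 68.7 CPM, against 741 ± 42.4 CPM (log2 fold change -1.16 ± 0.18, adjusted p = 0.000439). Gpx8, a peroxidase of the endoplasmic reticulum, rose to 191 ± 14.3 CPM, against 95.4 ± 50.6 CPM (adjusted p = 0.0434), and Prdx5 rose by 0.73 ± 0.27 (adjusted p = 0.0463).

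Selenium and copper supply was split, with 4 of 10 genes higher and 4 lower (median -0.16). Secisbp2, which binds the selenocysteine insertion element, and Eefsec, the elongation factor that delivers selenocysteine to the codon shown above, fell by 1.76 ± 0.29 and 1.07 ± 0.17 (adjusted p = 0.000710 and 0.000459). Pstk, a kinase in the making of selenocysteine transfer RNA, rose (1.28 ± 0.25, adjusted p = 0.00172). Of 7 genes of Nrf2 and its targets, 2 rose and 1 fell (median -0.15), totals that came to 1 with limma-voom, with only the marrow libraries, without marrow AML library 3 and without marrow control library 1. Hmox1, haem oxygenase, rose to 33.6 ± 13.7 CPM, against 7.95 ± 3.48 CPM (2.08 ± 0.37, adjusted p = 0.00107). Osgin1, induced by oxidative stress, rose from a low level, to 5.04 ± 1.28 CPM against 1.47 ± 1.21 CPM (1.76 ± 0.57, adjusted p = 0.0261). Keap1, which holds Nrf2 for degradation, fell by 0.54 ± 0.18 (adjusted p = 0.0288), with groups that overlapped. The 4 genes without a call were Nfe2l2, Bach1 and Nqo1, with log2 fold changes of -0.15, -0.86 and -0.62, and Abcc1, with 0.65.

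Of the enzymes that produce superoxide or peroxide, 5 of 9 tested genes were called higher and 0 lower by edgeR (median 2.97), and 0 were lower at an unadjusted p of 0.05. Cyba and Cybb, the membrane subunits of the phagocyte oxidase, rose by 2.97 ± 0.20 and 3.27 ± 0.49 (adjusted p = 1.17e-05 and 0.000400). Xdh, xanthine dehydrogenase, rose to 139 ± 52.7 CPM, against 16.0 ± 3.01 CPM (3.13 ± 0.31, adjusted p = 4.05e-05). Of 8 leukocyte markers 6 rose and 1 fell, while Ptprc, which defines the type, was at 1.77 ± 2.80 CPM in marrow AML and 5.20 ± 2.67 CPM in marrow control and did not pass (adjusted p = 0.219). Together the 8 took 0.0176 to 0.0294% of the counts in marrow AML and 0.0118 to 0.0151% in marrow control. Monocyte and macrophage markers took 0.00622 to 0.0300% of the counts in marrow AML and 0.00867 to 0.0440% in marrow control, with Marco at 0 in marrow AML and 0 of 8 called. Most of this share was Lyz2, at 115 ± 119 CPM in marrow AML and 222 ± 214 CPM in marrow control. Neutrophil markers took 0.00105 to 0.0184% and 0.00213 to 0.0335%. Their part in these rises was not tested.

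In lung 0 of the 47 tested genes of the 6 lists passed by edgeR. At an unadjusted p of 0.05 there were 8, DESeq2 called 2, limma-voom called 6, and edgeR on the 6 lung libraries alone called 3. Xdh came closest, with 879 ± 142 CPM in lung AML and 405 ± 93.9 CPM in lung control (log2 fold change 1.12 ± 0.29, adjusted p = 0.0727). Nfe2l2, which encodes Nrf2, had 345 ± 18.1 and 261 ± 19.6 CPM (0.40 ± 0.16, adjusted p = 0.237), and Prdx3 had a value of 0.46 ± 0.18 (adjusted p = 0.218). Sephs2, which makes the selenium donor, had 68.7 ± 4.19 and 44.2 ± 9.60 CPM (adjusted p = 0.150), and Nox4, an oxidase that makes hydrogen peroxide, named after its values were seen, had 115 ± 31.0 and 27.9 ± 14.3 CPM (0.268). Mpo, myeloperoxidase, which is also among the neutrophil markers, had 12.7 ± 11.8 and 0.0911 ± 0.0549 CPM (adjusted p = 0.186). The other two had lower values in lung AML. Nox1 was at 0 to 0.111 CPM in lung AML and 0.481 to 2.65 CPM in lung control (adjusted p = 0.0986), and Gpx2 at 7.25 ± 0.951 and 26.0 ± 16.1 CPM (0.297).

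**Figure D5:**
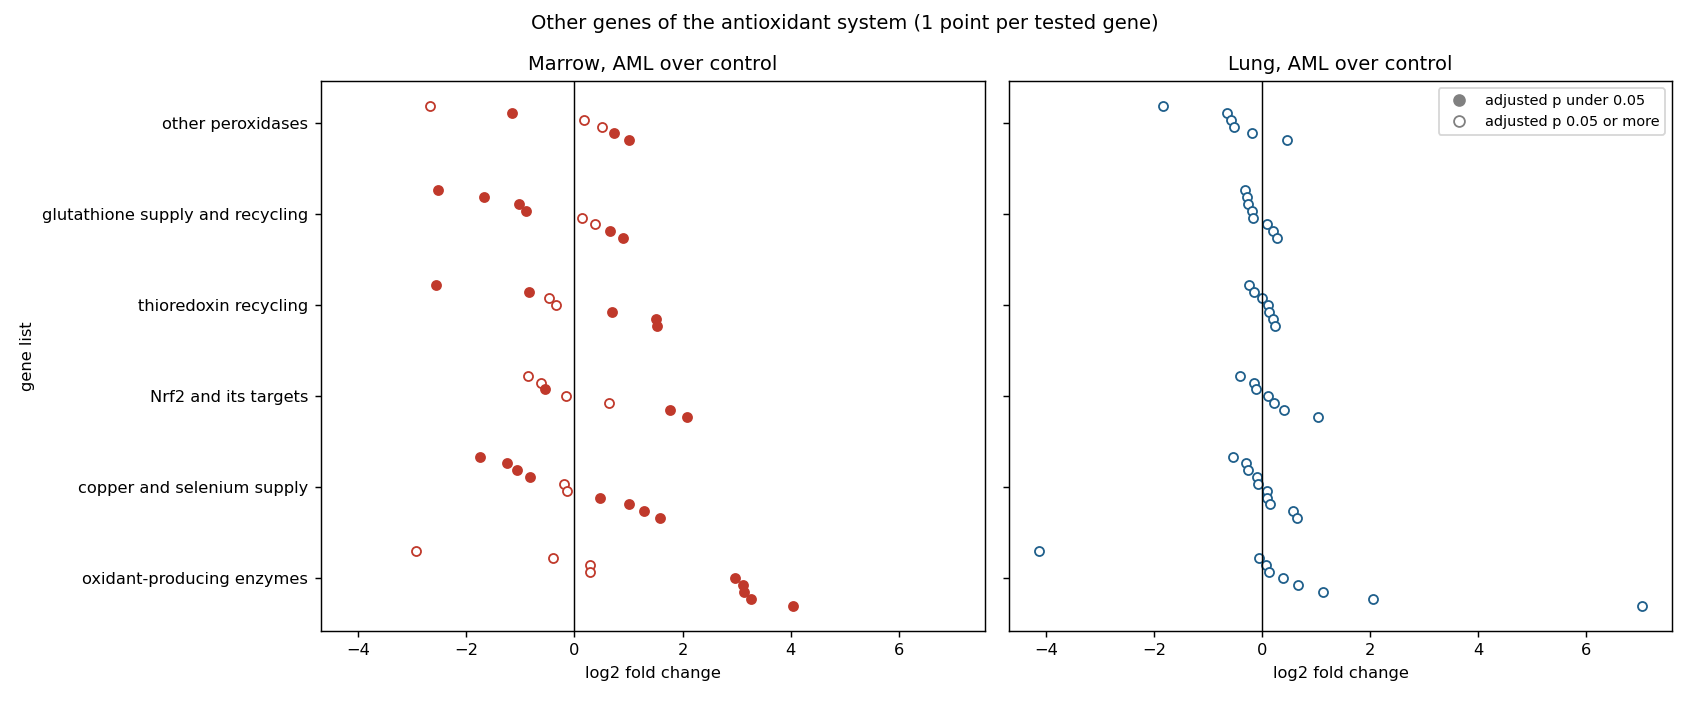
Each point is 1 tested gene of the 6 lists, placed by its log2 fold change, AML over control, in marrow (left panel) and in lung (right panel), filled where the adjusted p was under 0.05. In marrow filled points lie on both sides of 0 in 5 lists and to the right alone for the oxidant-producing enzymes, and in lung 0 of 47 points are filled.

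The effect in marrow minus that in lung was called higher for 2 and lower for 1 of 6 other peroxidases, for 1 and 4 of 8 glutathione genes, for 0 and 2 of 7 thioredoxin genes, for 1 and 0 of 7 genes of the Nrf2 list, for 2 and 4 of 10 selenium and copper genes and for 4 and 0 of 9 oxidant-producing enzymes, beside 14.6% of all genes called higher and 16.1% called lower. Gclc differed by -2.71 ± 0.28 (adjusted p = 0.000168), Txnrd2 by -2.81 ± 0.29 (0.000167) and Prdx3 by -1.62 ± 0.25 (0.000938), each with its fall in marrow. Cyba differed by 2.85 ± 0.27 (adjusted p = 0.000132) and Hmox1 by 1.97 ± 0.50 (0.0128), each with its rise in marrow. Calls in the thioredoxin list moved most, with 1 under 4 other settings and in the 10 fits that left out any library other than marrow AML library 1 or 2, and 4 with library totals or DESeq2's test. Those of the other peroxidases came to 5 with library totals and to 1 without marrow control library 1 or 2 or lung AML library 1 or 3, and those of the Nrf2 list to 2 with limma-voom and without marrow AML library 3.

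Between marrow control and lung control the calls went both ways, with 2 higher and 2 lower of 6 other peroxidases, 3 and 3 of 8 glutathione genes, 3 and 3 of 7 thioredoxin genes, 1 and 3 of 7 genes of the Nrf2 list, 6 and 2 of 10 selenium and copper genes and 1 and 6 of 9 oxidant-producing enzymes, beside 29.4% of all genes called higher and 34.7% called lower. Leaving out marrow control library 2 gave 5 calls in place of 8 in the selenium and copper list. Prdx3 and Txnrd2 were higher in marrow (log2 fold changes 3.22 ± 0.19 and 3.17 ± 0.22, adjusted p = 3.77e-07 and 7.91e-07). Gclm was higher too (2.61 ± 0.27, adjusted p = 1.05e-05). Lower in marrow were Osgin1 (-5.17 ± 0.62, adjusted p = 3.01e-05), Hmox1 (-2.96 ± 0.38, 4.99e-05) and Xdh (-4.66 ± 0.34, 1.06e-06). Selenop, the selenium carrier of plasma, was lower as well (-2.41 ± 0.28, adjusted p = 2.58e-05).

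Patterns over the 12 libraries were compared by the root mean square difference of log2 CPM, after each gene was centred on its own mean, among 10014 genes averaging 10 CPM or more. The genes share libraries, so these are descriptions. Prdx2 was nearest to Uros, at 0.135, which averaged 71.6 ± 46.0 CPM in marrow AML, 539 ± 69.5 CPM in marrow control, 14.6 ± 1.77 CPM in lung AML and 17.7 ± 2.58 CPM in lung control. Next came Haspin at 0.270 and Tmem14c at 0.326. Gpx1 was nearest to Orc2, Urod and Ppox, at 0.224, 0.237 and 0.250.

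Gpx3 had few close neighbours, with Angptl4 at 0.399, then Serpina3c at 0.586 and Larp6 at 0.594. Angptl4 averaged 752 ± 282 CPM in marrow AML, 107 ± 36.1 CPM in marrow control, 459 ± 82.5 CPM in lung AML and 60.6 ± 21.3 CPM in lung control. Sod3 was nearest to Lama4, Aebp1 and Lamb1 (0.370, 0.406 and 0.468), Prdx6 to Pde7a, Naxd and Slc31a1 (0.307, 0.325 and 0.343) and Cat to Ggcx (0.149). Gpx4 was nearest to Ost4 (0.146), Prdx1 to Srp14 (0.116), Sod1 to Higd2a (0.172) and Sod2 to Dnajc7 (0.125). Among the 10 genes themselves, the nearest pairs were Prdx1 with Sod2 at 0.392 and Prdx1 with Sod1 at 0.468, the flattest of the set, and for Gpx1 and Prdx2 the nearest of the 10 was each other, at 0.652. Gpx3 and Sod3, which both rose in marrow, were 1.61 apart.

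Promoter windows of 250 bases before to 50 after the start were read for 8 of the 10 genes, 11 windows in all, from the RefSeq table of GRCm38.p6. Prdx6 and Sod3 had none there. The core of the antioxidant response element, TGACNNNGC, which Nrf2 binds, was searched on both strands and found in windows of 2 genes, Prdx1 and Sod1, and in 12.4% of all 32851 windows. Both matches lie on the strand opposite to the gene. They are shown beside the values above, where Prdx1 passed in neither tissue and Sod1 fell in marrow. The capitals mark the match within 39 bases of the gene's strand.
Prdx1, bases -133 to -125 from the start, chr4:116685451-116685489: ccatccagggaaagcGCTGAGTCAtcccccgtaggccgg
Sod1, bases -56 to -48 from the start, chr16:90220691-90220729: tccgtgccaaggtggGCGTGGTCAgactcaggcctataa
A GATA motif, AGATAA or TGATAA on either strand, was found in windows of 1 gene, Gpx4, and in 18.6% of all windows. It was not in the windows of Gpx1 or Prdx2. A match is a string of letters and not a measured site, and its absence says only that these letters are not in this window.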

How the data were processed

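RNA from 12 libraries was prepared with SMART-Seq v4 and ThruPLEX kits, per the labels' protocols. Reads were aligned to mm10 with STAR after bcl2fastq, per the submitters' processing notes. The authors deposited raw counts per gene symbol, made without regard to strand per the file names. No counting tool, annotation or filter is named in these sources. No batch is given. All columns used mapped to a labelled sample, and totals of 12787550 to 39163571 counts set the precision.

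Counts were filtered with filterByExpr (edgeR 4.0.16, R 4.3.3; minimum count 10, minimum total 15), scaled with TMM and tested by edgeR's quasi-likelihood test in 1 fit of the 4 groups (8 residual degrees of freedom), with Benjamini-Hochberg adjustment over 18147 genes and a threshold of 0.05. The procedure was tried on simulated data for marrow AML against marrow control alone, with few genes changed, and not for the other comparisons. Levels per kb used GENCODE M21 exon lengths, and ± beside a log2 fold change is its SE. The 10 genes were named in every comparison, as were up to 3 genes of the smallest p in each other list and up to 3 of the most similar pattern. Members, lists and markers were chosen with earlier results of these data known. Alternatives were other scalings, filters and dispersions, DESeq2 1.42.0, limma-voom (limma 3.58.1), a replicate block, fits of only the groups compared, leaving out each library and, added after seeing the data, transcript length.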

Additional observations from a re-analysis of the deposited data

Results flagged for a closer look

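For 4 of the 10 genes the effect of leukaemia differed between marrow and lung when the difference itself was tested as an interaction in edgeR. The same test called 30.7% of all tested genes, 14.6% higher and 16.1% lower. Whether the 10 genes exceed these shares was not tested. The log2 effect in marrow minus that in lung was -2.3 for Gpx1, whose group means were 1971 CPM in marrow AML against 7635 CPM in marrow control, and 715 CPM in lung AML against 562 CPM in lung control. It was -2.35 for Prdx2, with 632 against 3988 CPM in marrow and 111 against 137 CPM in lung. For Prdx6 it was -1.67, with 355 against 416 CPM in marrow and 1683 against 620.2 CPM in lung. For Sod3 it was 2.63, with 290.3 against 35.2 CPM in marrow and 479.9 against 362 CPM in lung. Without lung control library 2, lowest in Sod3 among the lung libraries, the Sod3 difference was 3.05 (adjusted p = 0.00325).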

How the results depend on the processing

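Of the log2 fold changes of single genes recomputed under the alternatives, 640 kept their direction and their side of the threshold, 26 lost a call, 6 gained one and 18 changed sign. In lung the number of all genes called was 423 and changed to 1239 with only the 6 lung libraries fitted, 1643 with DESeq2's Wald test, 2282 with limma-voom and 72 to 325 with 1 library left out, and the number of the 10 genes called was 1 to 2 with 1 library left out. Leaving out 1 library gave 4 to 6 of the 10 genes and 6418 to 8589 of all genes called in marrow, 4 to 5 and 4181 to 6417 for the difference between tissues, and 6 to 7 and 10374 to 10865 between the control tissues. The changes of sign were all of values not called. In marrow they were Prdx6 (0.087) and Cat (0.14) with library totals and Cat (0.048) with a filter of 5 CPM in 3 libraries. In lung they were Gpx4 without lung control library 3 (-0.046 to 0.181 with 1 library left out), Sod3 without lung control library 2 (-0.00052 to 0.653), and Sod2 with TMM factors made without marker genes (0.017), the 5 CPM filter (0.0022), limma-voom (0.0205), and without lung AML library 2 or lung control library 1 (-0.108 to 0.0921). For the difference it was Cat with library totals (0.0096). Between the control tissues they were Prdx1 without marrow control library 3 (-0.0094 to 0.449 with 1 library left out) and Gpx3 with DESeq2 size factors (-0.0037), TMM without marker genes (-0.10), no filter (-0.065), DESeq2's test (-0.0037), and without marrow control library 3 or lung control library 2 (-0.34 to 0.405). Sod1 between the control tissues lost its call in 10 settings (adjusted p 0.0594 to 0.185), and the Gpx4 difference passed without marrow AML library 1 (0.0405) or marrow control library 1 (0.0259). The cause was not tested.

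Whether replicate numbers pair the samples is not given in the labels. Correlations of same-numbered libraries' deviations lay between -0.162 and 0.183. Differently numbered libraries were not set beside them, so these values cannot decide the question. A fit with the replicate number as a block called 7253, 331, 4924 and 11255 genes in marrow, lung, the difference and the control tissues, and 6, 2, 4 and 7 of the 10 genes.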
